A study of Homo sapiens and Mus musculus with 12 samples.

Results

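The transcription factor genes PAX2, PAX3, PAX5, PAX7, PAX8, EN1, EN2, GBX2 and IRX3 pattern the midbrain and hindbrain. They were followed by gene symbol in human cortical organoids and by gene description in mouse cortical organoids, which gave 9 of 60675 human gene identifiers and 9 of 47729 mouse ones. The human libraries were KO, labelled as NOTCH2NL knockout, and WT, both from H9 human embryonic stem cells at week 4 (day 28) of differentiation. The mouse libraries were N2NL, a stable line carrying NOTCH2NL-Sh_T197I, a form of the human gene, and EV, a stable line carrying the empty vector, both from 46C mouse embryonic stem cells at day 6. Each of the 4 groups had 3 libraries, made from pools of 5 to 10 organoids in human and of 16 in mouse. Both human groups had received IWR-1-endo, an inhibitor of Wnt signalling (3 µM), and cyclopamine, an inhibitor of Hedgehog signalling (1 µM, until day 24), along with SB431542 and dorsomorphin. The library names give 1 line code to all KO libraries and 1 to all WT libraries, so that genotype and line cannot be told apart, and the same holds for N2NL and EV. Separate cultures are not mentioned for the pools within a group, so p-values reflect variation between pools that could be technical.

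Along the early neural tube, signals from the isthmus, the border of midbrain and hindbrain, hold a set of transcription factors in a narrow band. PAX2, PAX5 and PAX8 are related paired-domain factors of that band, EN1 and EN2 are homeobox factors of the same band, and GBX2 is the homeobox factor of the anterior hindbrain that opposes OTX2, the homeobox factor of forebrain and midbrain. PAX3 and PAX7 are paired-homeobox factors of the dorsal neural tube, including the dorsal midbrain, and IRX3 is an Iroquois homeobox factor of the neural tube behind the anterior forebrain. NOTCH2NL genes, found in humans, are incomplete copies of the Notch receptor gene NOTCH2, and the comparisons ask what changes when they are lost from human organoids or 1 of them is expressed in mouse organoids.

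Total counts ran from 15381409 to 16382938 per human library and from 16781742 to 20960391 per mouse library. At these depths a count of 0 allows a level of up to 0.195 CPM (counts per 1000000 counts) in human and 0.179 CPM in mouse, for counting error only. NOTCH2NL itself had 0, 0 and 0 counts in KO 1 to 3 and 4, 5 and 3 in WT 1 to 3, and near-identical copies can take its reads. In the authors' deposited table it had normalized values of 801, 709 and 740 in N2NL 1 to 3 and 0 in all 3 EV libraries. The first principal component of the human log2 CPM, with 48.8% of the variance, parted all 3 KO libraries from all 3 WT libraries, and WT 1 stood apart on the second (22.1%). The 12 telencephalon regulators listed summed to 914 to 1440 CPM in KO and 957 to 1540 CPM in WT. One of them, NR2F1, made up 345.3 CPM in KO 3 and 384.1 CPM in WT 2. No reference tissue stood beside these sums, so they do not test the cortical label.

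The members were not equally abundant in human organoids. Levels are compared between genes here per kilobase of merged exons. In KO libraries the order was PAX2 (6.91 ± 3.39 CPM per kb), PAX3 (5.11 ± 3.16), GBX2 (4.71 ± 2.29), IRX3 (3.59 ± 2.31), PAX7 (2.01 ± 1.02) and PAX8 (1.32 ± 0.485; SD, n = 3 each). In WT libraries the order was GBX2 (13.9 ± 6.26 CPM per kb), PAX2 (11.4 ± 4.04), PAX3 (7.23 ± 2.41), PAX8 (5.31 ± 1.45), IRX3 (4.71 ± 1.81) and PAX7 (4.16 ± 1.61). Neighbours in either order had overlapping ranges, so the order is not fixed within the spread between libraries. PAX8 had the lowest mean of the 6 in KO but not in WT, and GBX2 had the highest in WT but not in KO.

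PAX5, EN1 and EN2 were under the filter of the edgeR test in human. PAX5 had an adjusted p of 0.81 from DESeq2, which gave none for EN1 and EN2. PAX5 had 7, 1 and 11 counts in KO 1 to 3 and 11, 7 and 10 in WT 1 to 3. EN1 had 0 counts in all 3 KO libraries and in WT 1 and WT 2, and 1 count in WT 3. EN2 had 0, 1 and 1 counts in KO 1 to 3 and 1, 1 and 10 in WT 1 to 3. The engrailed pair, which marks the isthmic band most closely, was therefore at or near the detection limit in both groups, with WT 3 holding most of the EN2 reads.

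**Figure D1:**
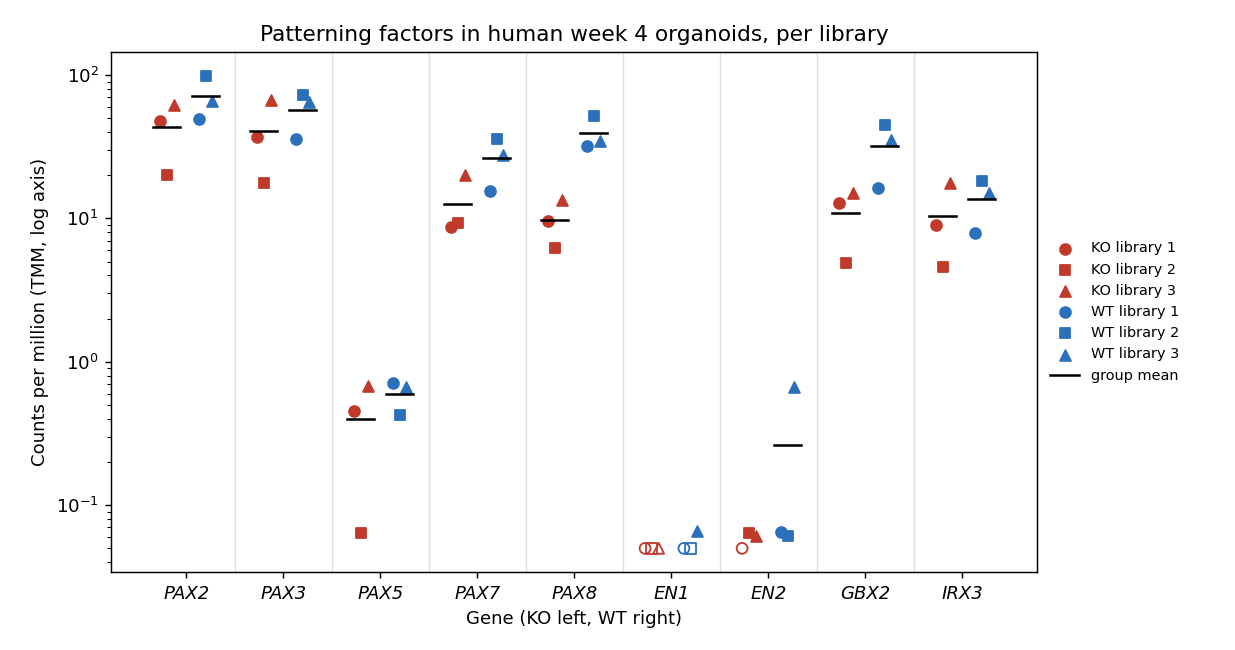
Level (CPM) of the 9 genes in each human library, on a log axis, with KO left and WT right of each gene. Open symbols at the bottom mark a count of 0, and black bars are group means. PAX8 and GBX2 had all 3 KO libraries below all 3 WT libraries, whereas PAX2, PAX3, PAX7 and IRX3 overlapped.

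PAX8 was the member that fell. It had 9.62, 6.228 and 13.4 CPM in KO 1 to 3, against 31.75, 51.55 and 34.63 CPM in WT 1 to 3. Every KO library was below every WT library, and the gap between KO 3 and WT 1 was wider than the whole range of the KO libraries. PAX8 averaged 9.75 ± 3.59 CPM in KO and 39.3 ± 10.7 CPM in WT (SD, n = 3 each). The log2 fold change was -2.01 ± 0.31 (SE; 95% interval -2.73 to -1.29; edgeR quasi-likelihood test, adjusted p = 0.0162), which is 4.03-fold lower in KO. Among the 6 members with enough counts for the test, 1 was called lower and 0 higher, where 3.19% of all 16956 tested genes were called lower and 5.5% called in either direction at an adjusted p under 0.05. The call was lost without KO 1 (adjusted p = 0.0844) and without WT 3 (adjusted p = 0.0566) and held in the other 4 of the 6 leave-one-out fits, whose log2 fold changes ran from -2.31 to -1.76 and adjusted p from 0.0097 to 0.0844. With the replicate number as a block in the edgeR fit, the call of PAX8 was lost. DESeq2 and limma-voom called PAX8 as well, where they called 7.13% and 4.94% of all genes they tested. In the authors' deposited table the log2 fold change of PAX8 was -1.6 with a standard error of 0.2 and an adjusted p of 3.88e-13, in a table that called 7.38% of its genes. Fold changes of other members were smaller there too, at -0.61 for GBX2 and -0.5 for PAX7, against -1.56 and -1.04 in the fit here. The 2 sets of fold changes may therefore not be on the same scale.

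GBX2 also had no overlap between the groups. Its levels were 12.87, 4.893 and 14.93 CPM in KO 1 to 3, against 16.33, 44.79 and 35.43 CPM in WT 1 to 3. The gap was narrow, because WT 1 lay close to KO 3 and far below WT 2 and WT 3. The log2 fold change was -1.56 ± 0.55 (95% interval -2.96 to -0.16), and GBX2 did not pass (edgeR quasi-likelihood test, adjusted p = 0.183, unadjusted 0.0352). Of the 6 tested members, 2 had all KO libraries below all WT libraries, against 14.8% of all tested genes.

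The paired-homeobox genes did not pass. PAX7 had 8.71, 9.278 and 20.13 CPM in KO 1 to 3, against 15.42, 35.65 and 27.66 CPM in WT 1 to 3. KO 3 lay inside the WT range, and KO 1 and KO 2 lay below it. Its log2 fold change was -1.04 ± 0.45 (95% interval -2.17 to 0.08; edgeR adjusted p = 0.247). PAX3 had 36.86, 17.54 and 67.3 CPM in KO 1 to 3, against 35.77, 72.02 and 64.35 CPM in WT 1 to 3. The 2 groups covered nearly the same range, with only KO 2 clearly outside it. Its log2 fold change was -0.50 ± 0.55 (95% interval -1.92 to 0.92; edgeR adjusted p = 0.654).

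PAX2, the paired-domain relative of PAX8, had 47.65, 20.08 and 61.73 CPM in KO 1 to 3, against 49.64, 99.02 and 65.48 CPM in WT 1 to 3. KO 3 and WT 1 overlapped, and KO 2 and WT 2 were the extremes. Its log2 fold change was -0.73 ± 0.49 (95% interval -1.98 to 0.53; edgeR adjusted p = 0.446). IRX3 had 8.97, 4.575 and 17.8 CPM in KO 1 to 3, against 7.906, 18.22 and 14.99 CPM in WT 1 to 3. The KO and WT ranges of IRX3 overlapped over most of their width. Its log2 fold change was -0.39 ± 0.55 (95% interval -1.76 to 0.98; edgeR adjusted p = 0.733). All 6 tested members had log2 fold changes below 0, with a median of -0.89 where the median of all tested genes was 0. In bulk samples, fewer cells of a type and less RNA per cell cannot be told apart, here and in every result that follows.

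**Figure D2:**
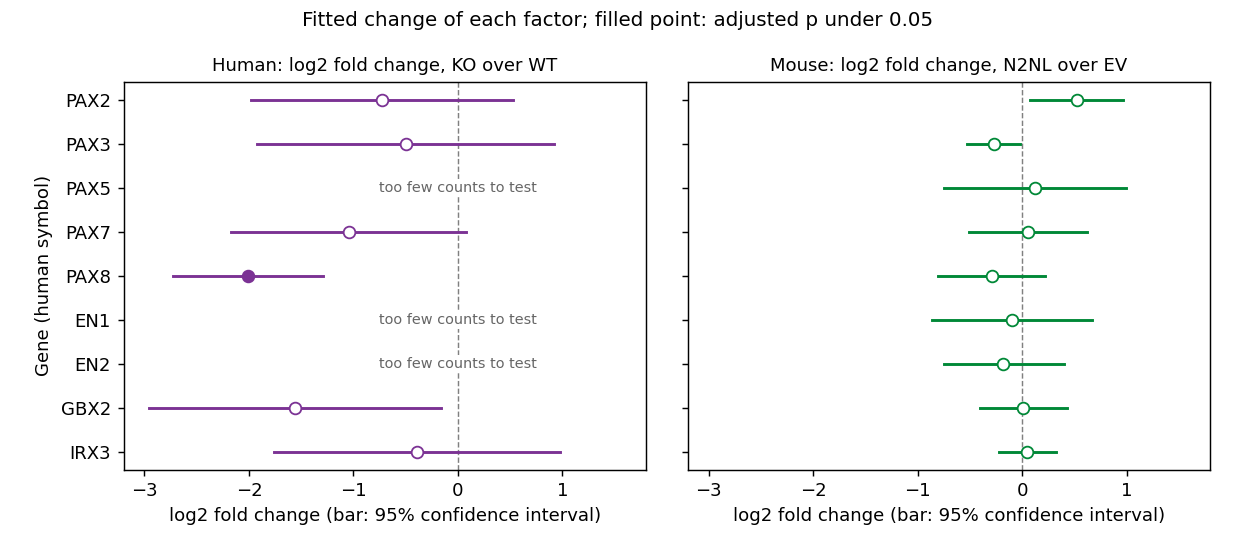
Log2 fold change of each gene, KO over WT in human (left) and N2NL over EV in mouse (right), with 95% confidence intervals. A filled point has an adjusted p under 0.05: PAX8 in human, at -2.01, is the single filled point.

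Within each group the members moved together from library to library. KO 3 was the highest KO library for all 6 tested members, and KO 2 the lowest for 5 of the 6, the exception being PAX7, for which it was KO 1. WT 2 was the highest and WT 1 the lowest WT library for all 6. Of all 16956 tested genes, 37.4% had their lowest KO value in KO 2, and 37.4% their lowest WT value in WT 1. The within-group SD of log2 CPM was 0.47 for PAX8, 0.64 for PAX7, 0.69 for PAX2, 0.78 for PAX3 and 0.81 for GBX2 and IRX3, against a median of 0.19 over all tested genes. The members' spread was thus shared between them and wider than that of the median gene. The summed level of the 9 members was 125.1, 62.72 and 196 CPM in KO 1 to 3, against 157.6, 321.7 and 243.9 CPM in WT 1 to 3.

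The make-up of that sum differed between the groups as well, and a share within 1 library is not moved by a factor common to the 6 genes in that library. This measure was chosen after the values had been seen, and with 3 libraries against 3 the smallest two-sided p of an exact permutation test is 0.1, so it is given as a description. PAX8 made up 7.72%, 9.95% and 6.86% of the summed CPM of the 6 tested members in KO 1 to 3, against 20.2%, 16% and 14.3% in WT 1 to 3. GBX2 made up 7.64% to 10.3% in KO, against 10.4% to 14.6% in WT, ranges that nearly touch. PAX3 made up 28% to 34.5% in KO, against 22.4% to 26.5% in WT, and IRX3 7.19% to 9.12% in KO, against 5.04% to 6.18% in WT. The shares of PAX2 and PAX7 overlapped between the groups. PAX8 thus took a smaller share in each KO library than in any WT library, while the shares of PAX3 and IRX3 were larger. Shares add up to a fixed total in each library, so smaller shares of some genes make those of others larger. The larger shares are therefore no rise of PAX3 or IRX3. Their CPM ranges overlapped between the groups, and their log2 fold changes were -0.5 and -0.39.

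**Figure D3:**
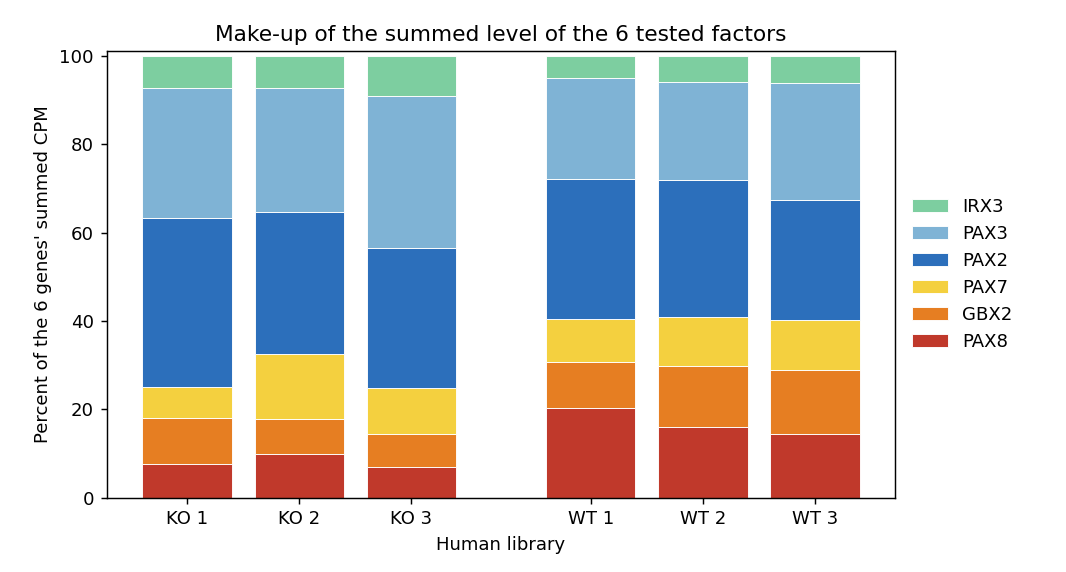
Percent of the summed CPM of the 6 tested genes that each gene made up in each human library, KO left and WT right. The PAX8 share (bottom) was 6.86% to 9.95% in KO libraries and 14.3% to 20.2% in WT libraries.

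Around the start of these genes, RefSeq promoter windows (GRCh38.p14, 250 bases before the start and 50 after it) were found for 7 members, all but EN1 and IRX3. They were searched on both strands for TGGGAA, the core of the site bound by RBPJ, the DNA-binding factor of Notch signalling, and for ATCAAAG, a site of the TCF/LEF factors of Wnt signalling; neither motif overlaps the other. The RBPJ core had 1 match each in PAX8, PAX3 and the first of 2 PAX2 starts and none in GBX2, PAX7, PAX5, EN2 or the second PAX2 start, and 24% of 35116 promoter windows held it. The TCF/LEF letters had no match in any member's window and were in 2.62% of all windows. PAX8, the gene that fell, is shown with GBX2, which came next in size, and with PAX3 and PAX2, the other windows with a match. The lines run 5′ to 3′ on the gene's strand from 250 bases before the start to 30 after it, and capitals mark the RBPJ core. The windows are chr2:113278892-113279171 (minus strand) for PAX8, chr2:236168357-236168636 (minus) for GBX2, chr2:222298969-222299248 (minus) for PAX3 and chr10:100735146-100735425 (plus) for PAX2.
PAX8: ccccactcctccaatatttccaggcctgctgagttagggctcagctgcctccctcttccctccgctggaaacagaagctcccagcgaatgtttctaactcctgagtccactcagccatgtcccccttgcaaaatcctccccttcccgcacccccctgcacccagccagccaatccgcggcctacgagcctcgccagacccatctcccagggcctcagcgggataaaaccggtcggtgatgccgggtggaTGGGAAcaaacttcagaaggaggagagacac
GBX2: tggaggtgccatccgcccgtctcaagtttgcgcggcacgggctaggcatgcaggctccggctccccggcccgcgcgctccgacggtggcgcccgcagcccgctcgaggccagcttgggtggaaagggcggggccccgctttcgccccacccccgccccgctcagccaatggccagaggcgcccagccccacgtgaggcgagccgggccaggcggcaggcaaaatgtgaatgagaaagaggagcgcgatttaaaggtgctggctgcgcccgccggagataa
PAX3: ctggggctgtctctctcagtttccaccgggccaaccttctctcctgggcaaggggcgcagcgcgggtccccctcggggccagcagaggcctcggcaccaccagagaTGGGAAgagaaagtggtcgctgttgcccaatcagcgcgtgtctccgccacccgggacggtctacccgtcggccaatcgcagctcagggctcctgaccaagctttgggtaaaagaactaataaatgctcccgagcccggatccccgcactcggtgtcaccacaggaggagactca
PAX2: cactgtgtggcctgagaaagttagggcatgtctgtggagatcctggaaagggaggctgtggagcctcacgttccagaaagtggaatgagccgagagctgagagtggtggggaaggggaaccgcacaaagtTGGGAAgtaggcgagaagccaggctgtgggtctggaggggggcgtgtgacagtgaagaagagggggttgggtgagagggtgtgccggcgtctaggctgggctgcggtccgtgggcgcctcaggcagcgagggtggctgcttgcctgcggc
The match in PAX8 began 1 base before the start, that in PAX3 144 bases before it and that in PAX2 120 bases before it. PAX8, called lower, and PAX2 and PAX3, not called, therefore all held the letters, and GBX2 did not.

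In GENCODE release 29 (GRCh38), PAX8 spans chr2:113215997-113278950 on the minus strand, with PAX8-AS1 on the opposite strand over it. PAX8-AS1 had 1, 0 and 0 counts in KO 1 to 3 and 4, 1 and 0 in WT 1 to 3, far below the 98 to 219 counts of PAX8 in KO and 490 to 846 in WT. GBX2 spans chr2:236165236-236168369 and AC019068.1, over it on the opposite strand, had 0, 0 and 2 counts in KO 1 to 3 and 2, 3 and 5 in WT 1 to 3. CCDC140, over PAX3 on the opposite strand, had 65, 34 and 115 counts in KO 1 to 3 and 44, 83 and 80 in WT 1 to 3; in CPM it shared its lowest library of each group and its highest KO library with PAX3, but was highest in WT 3 where PAX3 was highest in WT 2. The library kit kept strand, but whether the counting used it is not stated in these sources, so reads of PAX3 and CCDC140 may be mixed. Of 42 genes overlapping a member or within 100 kb of one and present in the counts, 9 had enough counts for the test. Of these, 0 were called (edgeR quasi-likelihood test), where 5.5% of all tested genes were called. AGAP1, near GBX2, came nearest (log2 fold change -0.36 ± 0.10, edgeR adjusted p = 0.0559). AC010980.1, near PAX3, stood at 0.64 ± 0.26 (edgeR adjusted p = 0.179). Both were named after their values were seen. One untested neighbour, CNPY1, next to EN2 and known from zebrafish as a positive regulator of Fgf signalling at the isthmus, had 0, 5 and 2 counts in KO 1 to 3, against 19, 18 and 8 in WT 1 to 3, and was named after its values were seen.

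For each member, the 3 tested genes with the nearest pattern over the 6 libraries of its species were found, with likeness measured as the mean absolute difference between centred log2 CPM values. IRX3 was nearest to MEG3 (0.033), PAX3 (0.08) and RARB (0.098), a retinoic acid receptor gene, where the median over all tested genes was 0.657. PAX3 was nearest to IRX3, NGB (0.081), the neuroglobin gene, and MEG3 (0.084). PAX2 was nearest to SLC6A5 (0.064), the glycine transporter gene of glycinergic neurons, LAMP5 (0.074) and UNCX (0.079). PAX7 had TLL2 (0.1) and ADCYAP1 (0.132) among its 3 nearest. PAX8 was nearest to IRX4 (0.139), ABCA8 (0.17) and TGM2 (0.186), and GBX2 to SKOR1 (0.098), C1QL4 (0.111) and RP11-445F12.1 (0.15). The medians over all tested genes were 0.554 for PAX2 and 1.017 for PAX8, and the distance between PAX8 and its relative PAX2 was 0.609. In mouse, Pax3 was nearest to the gene described as ISL1 transcription factor (0.039), Pax7 had reelin (0.049) among its 3 nearest, and Pax8 was nearest to the gene for dual specificity phosphatase 2 (0.072).

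FGF8 and WNT1, the signals that hold the isthmic band, were scarce in human organoids. FGF8, the organizer's fibroblast growth factor, had 2, 1 and 4 counts in KO 1 to 3, against 4, 8 and 11 in WT 1 to 3. WNT1, its Wnt signal, had 3, 4 and 7 counts in KO 1 to 3, against 3, 29 and 24 in WT 1 to 3. Both were under the filter of the edgeR test with all 6 libraries, and for WNT1 the WT 1 library was at the KO level. WNT1 passed the filter in 4 of the 6 leave-one-out fits and was called lower in 1, that without WT 1 (log2 fold change -2.48, edgeR adjusted p = 0.0126, against 0.205 to 0.354 in the other 3), and with no filter on low counts (edgeR adjusted p = 0.0121), but not by DESeq2 (adjusted p = 0.144). Of 12 tested genes in the list of isthmic signals and partners, 0 were called by edgeR's quasi-likelihood test or limma-voom. An unadjusted p under 0.05 was reached by 4 (33.3%), against 22.8% of all 16956 tested genes (edgeR quasi-likelihood test). That share is also the one to set beside such counts in the human lists that follow. DESeq2 called 1 gene of the list, IL17RD, an inhibitor of fibroblast growth factor signalling. The list had 1 call with library size alone, 3 with no filter on low counts (1 higher, 2 lower) and 1 without WT 1. The 4 genes with an unadjusted p under 0.05 went both ways. IL17RD stood at a log2 fold change of 0.42 ± 0.11 (edgeR adjusted p = 0.054) and LMX1A at 1.06 ± 0.40 (edgeR adjusted p = 0.198). ETV4, a target of that signalling, stood at -0.60 ± 0.21 (edgeR adjusted p = 0.126) and ETV5 at -0.43 ± 0.17 (edgeR adjusted p = 0.159). DUSP6 stood at 0.16 ± 0.26, and SPRY1 and SPRY2 at -0.20. The list's median was -0.20 (8 of 12 below 0).

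OTX2, the factor opposed by GBX2, had 112, 165 and 118 CPM in KO 1 to 3, against 26.4, 90.7 and 76.8 CPM in WT 1 to 3. All KO libraries were above all WT libraries, as for 14.1% of all tested genes, the reverse of GBX2. The log2 fold change of OTX2 was 1.03 ± 0.49 (edgeR adjusted p = 0.296), so OTX2 did not pass either, and WT 1 was the lowest library for both genes within WT. HELT, a bHLH factor that in mouse specifies midbrain GABAergic neurons, was called higher, with 35, 41 and 58 counts in KO 1 to 3 against 1, 1 and 2 in WT 1 to 3 (log2 fold change 4.92 ± 0.48, edgeR adjusted p = 0.000417, called in all 6 leave-one-out fits). It was the single call among 8 tested genes of the list of midbrain and forebrain-midbrain regulators, whose median was -0.18.

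Hindbrain and spinal cord regulators lay below 0 in 11 of 13 tested genes, with a median log2 fold change of -0.84. None was called by edgeR's quasi-likelihood test, DESeq2 or limma-voom. An unadjusted edgeR p under 0.05 was reached by 2 of the 13 (15.4%), against 22.8% of all tested genes. Among these regulators was LBX1, a homeobox gene of dorsal hindbrain and spinal cord interneurons (-1.07 ± 0.43, edgeR adjusted p = 0.219). LBX1 had 25.4, 10.9 and 33 CPM in KO 1 to 3, against 43.9, 62.2 and 39.7 CPM in WT 1 to 3. The other IRX genes lay below 0 in 5 of 5, with a median of -1.09 and 0 called by edgeR's quasi-likelihood test. IRX4 came nearest, with 5.72, 3.24 and 10.3 CPM in KO 1 to 3, against 16.4, 32.1 and 20.2 CPM in WT 1 to 3 (log2 fold change -1.83 ± 0.45, edgeR adjusted p = 0.0789; it had the list's 1 unadjusted p under 0.05, and DESeq2 and limma-voom each called it). IRX4 and LBX1, like PAX8, had every KO library below every WT library, as had 14.8% of all tested genes. GBX1, the relative of GBX2, stood at -1.07 ± 0.55 (edgeR adjusted p = 0.28), while MSX1, a dorsal midline homeobox gene, was called higher (1.17 ± 0.26, edgeR adjusted p = 0.0467, called in 1 of 6 leave-one-out fits).

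Levels of the hindbrain list went with the members from library to library, and levels of the telencephalon list went the other way. The hindbrain and spinal cord list summed to 162.1, 97.54 and 332.1 CPM in KO 1 to 3, against 198.1, 446.5 and 333.1 CPM in WT 1 to 3, with the same order of libraries within each group as the members. The telencephalon list summed to 1349, 1439 and 913.9 CPM in KO 1 to 3, against 1537, 957.4 and 1122 CPM in WT 1 to 3, with the reverse order within each group. KO 3, the highest KO library of the members, was the lowest KO library of the telencephalon list, and WT 1, the lowest WT library of the members, was its highest WT library. The part of these differences in the members' fold changes was not tested.

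**Figure D4:**
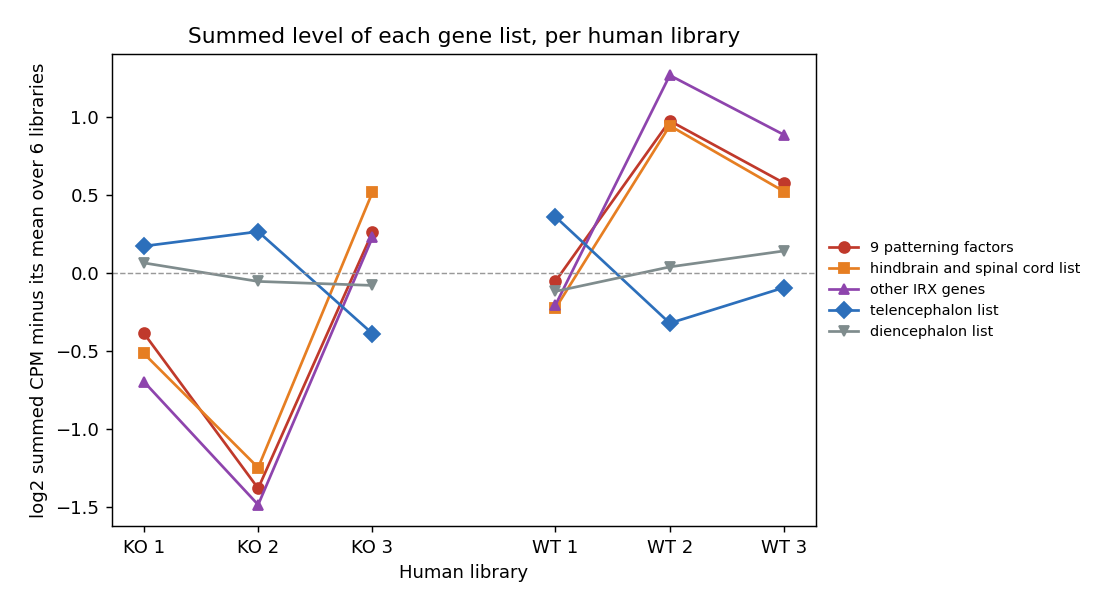
Summed CPM of 5 gene lists in each human library, as log2 values minus their mean over the 6 libraries, with KO left and WT right. The 9 patterning factors, the hindbrain and spinal cord list and the other IRX genes were lowest in KO 2 and, among WT libraries, in WT 1, while the telencephalon list was highest in those libraries.

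Among the forebrain lists, SIX3, an anterior forebrain and eye field factor, was called higher, with 30.7, 25.4 and 37.6 CPM in KO 1 to 3 against 6.61, 7.07 and 9.29 CPM in WT 1 to 3 (log2 fold change 2.03 ± 0.19, edgeR adjusted p = 0.000309, called in all 6 leave-one-out fits). It was the 1 call among 12 tested telencephalon genes, whose median was 0; DESeq2 and limma-voom each called SIX3 and SP8 (log2 fold change 1.23 ± 0.28, edgeR adjusted p = 0.0535). PAX6, the PAX gene of the dorsal forebrain, stood at 0.42 ± 0.21 (edgeR adjusted p = 0.298), with 237 ± 32.9 CPM in KO and 177 ± 48.6 CPM in WT. PAX6 thus differed in sign from each tested PAX member. Of 6 tested diencephalon genes, 0 were called by edgeR's quasi-likelihood test or limma-voom, 2 had an unadjusted p under 0.05, and DESeq2 called those 2. Of 12 cortical organoid markers, 0 were called by edgeR's quasi-likelihood test, DESeq2 or limma-voom, and 0 had an unadjusted p under 0.05.

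Other cell types also use these factors, and markers of some of those types were checked. PAX2 is known from the optic stalk, where 3 of 6 tested eye markers were called higher and 1 lower. VAX1, a ventral forebrain and optic stalk factor, had 78, 99 and 151 counts in KO 1 to 3 against 0, 11 and 18 in WT 1 to 3 (edgeR adjusted p = 0.0371, called in 1 of 6 leave-one-out fits). TYRP1, a pigment cell gene, had 25, 29 and 30 counts in KO 1 to 3 against 0, 5 and 1 in WT 1 to 3 (edgeR adjusted p = 0.00993). PMEL, another pigment cell gene, was the one called lower, with 27, 13 and 13 counts in KO 1 to 3 against 50, 89 and 47 in WT 1 to 3 (edgeR adjusted p = 0.0254). The PMEL call held in 2 of 6 leave-one-out fits, those without KO 1 and without WT 1 (adjusted p = 0.0154 to 0.0846 over the 6), and that of TYRP1 in 5 of 6, all but the one without WT 3 (adjusted p = 0.0777). The summed level of the eye list was 23.3 to 31.8 CPM in KO and 9.27 to 19.7 CPM in WT, with all KO libraries above all WT libraries, while PAX2 overlapped.

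Most markers of the other cell types checked had too few counts for the test, but some were at the members' level. TFAP2A averaged 35.4 CPM in KO and 83.5 CPM in WT, DNMT3B 41.4 and 64.8 CPM, and LHX1 20.1 and 47.1 CPM. For neural crest and muscle, where PAX3 and PAX7 act, 2 of 12 genes had enough counts for the test and 0 were called (edgeR quasi-likelihood test; 1 unadjusted p under 0.05; limma-voom 0; DESeq2, which also took genes under the filter, called MITF higher and FOXD3 lower), and the muscle factors MYF5 and MYOD1 had 0 counts in all 6 libraries. The summed level of that list was 41.9 to 67.1 CPM in KO and 45.8 to 138 CPM in WT, and followed the members' order of libraries. Most of it came from TFAP2A and MITF, which neural and pigment cells also express. For kidney, thyroid and inner ear, where PAX2 and PAX8 act, 5 of 12 genes were tested and 0 called or under an unadjusted p of 0.05 (edgeR, DESeq2 and limma-voom all 0), CDH16 had 0 counts throughout, and the sum was 19.3 to 31.5 CPM in KO and 27 to 76 CPM in WT. That sum was mostly LHX1, which is also a neural gene, and followed the members' order of libraries. For B lymphocytes, where PAX5 acts, 2 of 7 genes were tested and 0 called or under an unadjusted p of 0.05 (edgeR, DESeq2 and limma-voom all 0), with CD79B, MS4A1 and BLK at 0 and sums of 1.5 to 1.65 CPM in KO and 0.531 to 1.75 CPM in WT. Pluripotency genes had 0 of 3 called by edgeR's quasi-likelihood test, DESeq2 or limma-voom (1 unadjusted p under 0.05), TDGF1 was at 0, and POU5F1, NANOG and ZFP42 had 0 counts in all KO libraries and 0 or 1 in WT libraries. The pluripotency sum was 31.5 to 61 CPM in KO and 49.9 to 97.2 CPM in WT, mostly DNMT3B, and followed the members' order of libraries. The part of these cell types in the members' levels was not tested.

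In mouse organoids all 9 members were expressed highly enough to test and 0 were called by edgeR's quasi-likelihood test, which called 0.012% of 16682 tested genes. Limma-voom, which called 0.00599% of genes, and DESeq2, which called 0.347% of the genes it gave an adjusted p, called 0 members too, although DESeq2 gave an adjusted p for only 3 of the 9. An unadjusted p under 0.05 was reached by 2 of 9 members, Pax2 and Pax3, and by 7.45% of all tested genes. The members' log2 fold changes ran from -0.29 to 0.52, with 4 of 9 below 0 and a median of 0.01, where the median of all tested genes was -0.01.

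Pax2, the paired-domain factor that in human overlapped between the groups, had 2.94, 3.21 and 3.313 CPM in N2NL 1 to 3, against 2.225, 2.416 and 1.956 CPM in EV 1 to 3. All N2NL libraries were above all EV libraries, as for 7.39% of all tested genes, with 54 to 59 counts in N2NL and 40 to 51 in EV. The log2 fold change was 0.52 ± 0.21 (95% interval 0.07 to 0.96; edgeR quasi-likelihood test, adjusted p = 0.615, unadjusted 0.0261). Pax3 had 39.96, 48.86 and 43.67 CPM in N2NL 1 to 3, against 43.85, 54.76 and 61.41 CPM in EV 1 to 3. The groups overlapped, with a log2 fold change of -0.27 ± 0.12 (95% interval -0.53 to -0.02; edgeR adjusted p = 0.658, unadjusted 0.0382).

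Pax8, the gene that fell in human KO, had 2.641, 1.545 and 2.308 CPM in N2NL 1 to 3, against 2.876, 2.369 and 2.787 CPM in EV 1 to 3. N2NL 1 lay inside the EV range and the other two N2NL libraries below it. Its log2 fold change was -0.29 ± 0.24 (95% interval -0.81 to 0.22; edgeR adjusted p = 0.854), so a rise of more than 1.17-fold or a fall as large as that of PAX8 in human lay outside the interval. Gbx2 had 3.139, 3.269 and 3.373 CPM in N2NL 1 to 3, against 2.876, 3.695 and 3.08 CPM in EV 1 to 3, and its log2 fold change was 0.01 ± 0.19 (95% interval -0.40 to 0.43). Irx3, the member with the highest mean CPM in both mouse groups, had 62.98, 58.31 and 57.33 CPM in N2NL 1 to 3, against 70.77, 48.09 and 54.08 CPM in EV 1 to 3 (log2 fold change 0.05 ± 0.12, 95% interval -0.22 to 0.32). For Gbx2 and Irx3 the N2NL values lay within the EV range.

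The engrailed genes, at or near the detection limit in human, were above it in mouse. En1 had 0.847, 1.664 and 2.603 CPM in N2NL 1 to 3, against 1.465, 1.611 and 2.298 CPM in EV 1 to 3 (log2 fold change -0.10 ± 0.35, 95% interval -0.86 to 0.67). En2 had 1.744, 1.902 and 1.361 CPM in N2NL 1 to 3, against 1.411, 2.369 and 1.858 CPM in EV 1 to 3 (log2 fold change -0.18 ± 0.27, 95% interval -0.75 to 0.40). Both engrailed genes overlapped between N2NL and EV. Pax7 had 16.29, 23 and 26.45 CPM in N2NL 1 to 3, against 14.71, 23.12 and 25.08 CPM in EV 1 to 3 (0.06 ± 0.24 on the log2 scale). Pax5 had 12, 12 and 8 counts in N2NL 1 to 3 and 6, 15 and 12 in EV 1 to 3 (0.12 ± 0.40 on the log2 scale). In each of these genes the libraries of a group differed by more than the group means did.

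**Figure D5:**
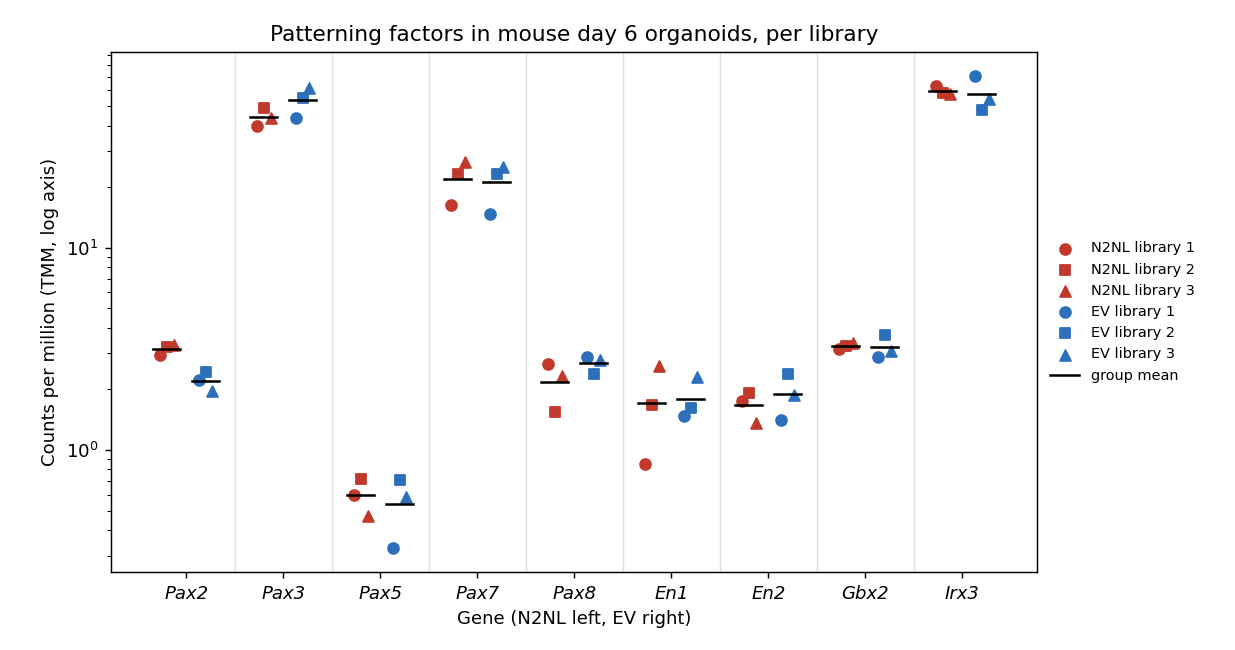
Level (CPM) of the 9 genes in each mouse library, on a log axis, with N2NL left and EV right of each gene and black bars at the group means. Pax2 had all 3 N2NL libraries (2.94 to 3.313) above all 3 EV libraries (1.956 to 2.416), and the other 8 genes overlapped.

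Wnt1, scarce in human, was abundant in mouse, at 116 ± 31.5 CPM in N2NL and 175 ± 47.8 CPM in EV (SD, n = 3 each; log2 fold change -0.59 ± 0.31, edgeR adjusted p = 0.766). Fgf8 averaged 0.974 ± 0.286 CPM in N2NL and 1.36 ± 0.32 CPM in EV (-0.48 ± 0.32 on the log2 scale). Otx2 stood at -0.19 ± 0.09 (edgeR adjusted p = 0.674) and Pax6 at 0.16 ± 0.07 (edgeR adjusted p = 0.628). Of 104 tested list genes other than the members, 0 were called by edgeR's quasi-likelihood test or limma-voom. An unadjusted edgeR p under 0.05 was reached by 35 (33.7%), against 7.45% of all tested genes. DESeq2 called 5 (Lhx2, Fezf2, Spry2, Dmrt3 and Utf1), where it called 0.347% of the genes it gave an adjusted p. The lists were chosen with earlier results of these data known. The telencephalon genes were all above 0, 12 of 12, with a median of 0.38, and 10 of them had an unadjusted p under 0.05. The hindbrain and spinal cord list had a median of 0, with 6 of 12 tested genes below 0. Within N2NL, 5 of 9 members were lowest in N2NL 1, against 41.8% of all tested genes, and 3 of 9 in N2NL 3. Within EV, 6 of 9 members were lowest in EV 1, against 37.7% of all tested genes.

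Human and mouse organoids differed in species, line, age and protocol, and KO and N2NL are different interventions, so the values stand side by side and their difference was not tested.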

How the data were processed

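RNA-seq counts per gene of 12 libraries were used. Builds GRCh38 and GRCm38 and the tools HTSeq 0.6.1p1, STAR 2.4.0 and Trimmomatic 0.36, besides DESeq2 2.11.39 and Bowtie2 2.3.3.1, appear in the submitters' processing notes, without their roles. The authors deposited raw counts, which are whole numbers, and comparison tables that hold, per the file headers, normalized values (treated as a score), p-values and, in the human table, log2 fold changes; single values from them are named as the authors'. In the human comparison table the normalized columns of replicates 1 and 3 are exchanged within each group relative to the raw counts, and replicate numbers here follow the raw counts. The mouse table's counter summary lines, which name no gene, were left out; 26.6% to 33.7% of mouse reads were aligned to several places.

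Each species was tested with edgeR 4.0.16 (R 4.3.3): filterByExpr, TMM factors, robust quasi-likelihood F test on the group alone, and Benjamini-Hochberg adjustment over all tested genes, with genes under an adjusted p of 0.05 called. CPM values use TMM factors, and the ± of a fold change is its size divided by the square root of F. The fit was tested on simulated counts. Members and the 14 gene lists (149 of 150 human genes found, 148 matched in mouse from gene descriptions) were chosen with earlier results of these data known. Named genes are all members, list genes called by this fit, OTX2, FGF8, WNT1 and PAX6, neighbours called or on the opposite strand over a member, and the 3 nearest genes by pattern; further list genes named in the text (IL17RD, ETV4, LBX1, IRX4, GBX1 and those that DESeq2 alone called, for example) were chosen after their values were seen; some genes under these rules are not reported here. Alternatives were RLE factors, library size alone, no filter, DESeq2 1.42.0, limma-voom 3.58.1, a replicate block and leaving out each library. GENCODE release 29 gave coordinates, and RefSeq (GRCh38.p14) the promoters.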

Additional observations from a re-analysis of the deposited data

How the results depend on the processing

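PAX8 kept a log2 fold change of -2.31 to -1.76 under every alternative tried. RLE factors, library size alone, no filter, DESeq2 and limma-voom called it too, with adjusted p from 1.34e-23 to 0.0163. It was the 1 member called, and the count was 0 with a replicate block (adjusted p = 0.0644) and 0 to 1 when a library was left out. Whether replicate numbers pair the libraries is not settled. Deviations of same-numbered libraries correlated at 0.22, -0.11 and 0.13 in human and at 0.14, 0.02 and 0 in mouse. KO 1 correlated best with WT 1 (0.22), but KO 3 with WT 2 (0.28). With 3 libraries a group, such correlations cannot exclude a pairing. No other human member was called in any of the alternatives, and none changed sign. Some came close to it, because leave-one-out log2 fold changes ran from -1.08 to -0.14 for PAX3 and from -1.02 to -0.03 for IRX3. Over all genes, KO against WT gave 932 calls, 899 with the block, 2155 with no filter and 224 to 1440 when a library was left out. In mouse 2 genes were called, with 117 under no filter, 30 under DESeq2, 1 under limma-voom, 21 under the block and 0 to 17 when a library was left out; members stayed at 0 throughout. Signs turned in 11 fits of mouse members that left out a library: Pax5 to -0.12 and -0.02 (range to 0.36), Pax7 to -0.14 and -0.1 (range to 0.23), En1 to 0.13 and 0.25 (range from -0.54), En2 to 0.03 (range from -0.34), Gbx2 to -0.06, -0.01 and -0.01, and Irx3 to -0.07. The cause of these changes was not tested. Depth limits PAX5, EN1, EN2, FGF8 and WNT1 in human, which were under the filter of the edgeR test with all 6 libraries.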
